A study of Mus musculus with 7 samples.

Results

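The genes described here are those whose RNA level in all 5 arrays of divided OT-I cells lay above both arrays of undivided naive OT-I cells, or below both. OT-I cells are mouse CD8 T cells with a transgenic receptor for a peptide of chicken ovalbumin. Of 18194 genes named on the array, 10128 (55.7%) met this rule, 1677 above and 8451 below naive. Most of the second kind carried no usable signal: 7459 of them never reached a log2 value of 5 on at least 2 arrays, and their median distance from the naive arrays was 0.0097. The account therefore keeps to the 8203 genes that did reach that level, called tested genes below. Among these, 2610 genes (31.8%) were on one side of naive, 1618 above (19.7%) and 992 below (12.1%).

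All cells came from Ly5.1 OT-I donors on the C57BL/6 background, started as CD44lo CD8 cells, carried the division dye CFSE and were sorted as CD8+Ly5.1+ cells. Naive cells (n = 2 arrays) were undivided cells from the spleen of B6 hosts after 60 h, pooled from 10 mice per array. Divided cells had divided at least 2 times. They came from RIP-OVAhi hosts, a tolerance model in which the rat insulin promoter drives ovalbumin (n = 2, sacral and pancreatic lymph nodes, 60 h, pools of 20 mice), and from OCS/LPS hosts, primed with ovalbumin-coated splenocytes and lipopolysaccharide (n = 2, spleen, 60 h, pools of 10 mice). The last divided group came from Rag-/- hosts, which lack their own T and B cells (n = 1, spleen, 5 days, a pool of 10 mice). RIP-OVAhi and OCS/LPS thus differ in host and tissue at 1 time, and OCS/LPS and Rag differ in host and time in 1 tissue, so that within each pair these factors cannot be told apart.

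A naive CD8 T cell is held in quiescence by transcription factors of the KLF and FOXO families and is kept alive and circulating by cytokine and chemokine receptors. When it divides, it builds replication origins, copies its DNA and chromatin, and assembles a spindle that separates the chromosomes. Genes of DNA synthesis are typically driven by E2F factors. Genes of mitosis are typically driven through the CHR element and CCAAT boxes, read by the MuvB and B-MYB proteins and by NF-Y. Antigen, inflammation and lack of competing lymphocytes can each drive such division, and each adds its own programme of receptors and effector genes.

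Array medians ran from 2.97 to 3.08 (log2). The naive replicates differed more from each other (347 genes over 2-fold apart) than the RIP-OVAhi (28) or OCS/LPS replicates (31). Sex-linked genes separated the arrays numbered 1 from those numbered 2. The difference between 3′ and 5′ probe sets of Gapdh, which grows with RNA degradation, was 2.43 and 2.59 in naive cells and 1.85 to 2.21 in divided cells; its part in the results was not tested. Cd8a lay at 12.6 to 13.2 on every array and Cd3e at 9.94 to 10.4, whereas the B cell receptor gene Cd79a lay at 2.14 to 2.24. B cell transcripts were not absent, as Cd79b lay at 6.84 to 8.43 over the arrays. The summed level of the 8 B cell genes, 4 of which reached log2 5, was 8.38 and 9.01 in naive and 7.39 to 10.23 in divided arrays. No marker of CD4 or regulatory T cells (4 genes) or of pancreas (4 genes) reached log2 5 on any array. Some transcripts of MHC class II and myeloid cells were present in the spleen arrays and low in RIP-OVAhi (H2-Aa at 1.77 and 2.74 there against 6.50 to 7.63 elsewhere; its call of -1.05 was lost without either naive array, RIP-OVAhi replicate 1 or either OCS/LPS array, highest adjusted p = 0.144). Others were not, such as H2-DMa, at 8.53 and 8.49 for RIP-OVAhi against 7.33 to 7.72 in the other divided arrays, and Cst3, at 8.42 to 8.68 in all divided arrays. The summed level of the 6 MHC class II genes, 5 of which reached log2 5 on some array, was 8.81 and 9.20 in naive and 8.57 to 9.62 in divided arrays, and that of the 13 myeloid genes, 8 of which did, was 9.34 and 10.29 against 8.80 to 10.53. Both ranges overlapped, and no tested member of either list lay on one side of naive. In the B cell and platelet lists 1 gene each did: Cd22 rose by 2.66 (SE 0.21) and Ppbp fell by 2.62 (SE 0.57). Cd22 was at 4.28 for Rag, near its naive values of 4.04 and 3.59, and at 6.53 to 8.55 in the other divided arrays. The tested B cell genes had no common direction. Jchain overlapped naive but was called lower (-3.06), with 1.65 to 2.28 for RIP-OVAhi and Rag and 8.01 and 8.45 for OCS/LPS. Ms4a1 (-0.76) and Cd79b (0.08) overlapped naive and were not called. In the single Rag array several macrophage and erythroid transcripts stood above every other array: Csf1r at 8.51 against 2.44 to 2.56, C1qb at 7.42 against at most 5.13, and Slc4a1 at 8.28 against at most 5.73. The part of these transcripts in other results was not tested. In RNA from pooled cells, fewer cells with a transcript and less RNA per cell cannot be told apart.

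The distance between the nearest divided and the nearest naive array, here called the gap, was small for most genes. Its median was 0.20 on the log2 scale for genes above naive and 0.155 for genes below. A gap of at least 1 was reached by 147 genes above (1.79% of tested genes) and 18 below (0.219%), a gap of at least 2 by 57 and 3 (0.695% and 0.0366%), and a gap of at least 3 by 12 and 0 (0.146% and 0%). The largest gaps were 4.29 above and 2.66 below. Cell cycle genes made up 81 of the 147 genes above naive by at least 1, and 11 of the 12 above by at least 3; the twelfth, Depdc1a, was in no list. Activation and effector lists held another 7 of the 147. Among all 8203 tested genes the cell cycle lists held 250 and the activation and effector lists 67.

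**Figure D1:**
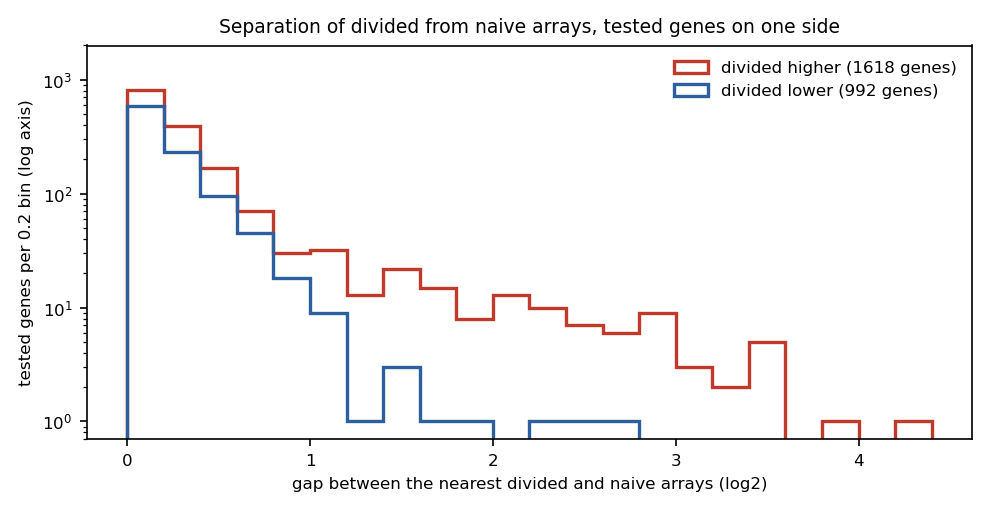
Histogram of the gap (x axis, log2 units, bins of 0.2) over the 1618 tested genes above naive and the 992 below, with the number of genes on a log axis. Most genes of either kind have small gaps (medians 0.20 and 0.155), and beyond a gap of 3 there are 12 genes above naive and none below.

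All 7 arrays were also fitted in 1 model, in which the mean of the 3 divided groups, each given equal weight, was compared with naive. Of the 8203 tested genes 1371 were called higher (16.7%) and 728 lower (8.87%) at an adjusted p under 0.05. Of the genes on one side, 1079 above and 552 below were called (13.2% and 6.73% of tested genes). One divided group at a time, RIP-OVAhi had 18.1% of tested genes called higher and 11.6% lower, OCS/LPS had 20.5% and 12.3%, and the single Rag array had 2.15% and 0.585%. The rule and this test use the same arrays, so these calls describe the genes and give no separate support. They depend on the spread between few arrays: the total of 2099 dropped to 1065 when RIP-OVAhi replicate 1 was left out, to 1037 for RIP-OVAhi replicate 2, to 1212 for OCS/LPS replicate 1 and to 1124 for OCS/LPS replicate 2. It was 418 when the differences between the divided groups were counted as error. Centring each array on its median moved every change by -0.11 and turned the split to 1032 higher and 1064 lower, and that of the genes on one side to 1170 above and 1530 below, so small changes are relative to that shift.

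A second test asked whether the divided groups differed from each other. This moderated F test compares the RIP-OVAhi, OCS/LPS and Rag levels with each other. The naive level is not in the comparison, but the spread between the naive arrays is part of the error it uses. It called 1386 of 8203 genes (16.9%), 394 of the 1618 genes above naive (24.4%) and 128 of the 992 below (12.9%). The Rag array was the divided group nearest to naive in 1212 of the 1618 genes above and in 688 of the 992 below. Accordingly the number of genes on one side grew to 4382 without the Rag array. The F test then compares only RIP-OVAhi with OCS/LPS, and it called 239. Without naive replicate 1 or 2 the genes on one side numbered 4495 and 4522. The F test called 2767 without either naive array, 406 and 413 when RIP-OVAhi replicate 1 or 2 was left out, and 527 and 456 when OCS/LPS replicate 1 or 2 was.

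Genes of mitosis were the furthest from naive. Of 54 tested genes of the spindle, the kinetochore and cytokinesis, 49 lay above naive on all 5 divided arrays, 0 lay below, and 54 were called higher. Their median change was 3.80 on the log2 scale, against 0.06 for all tested genes. Among 32 cyclins, mitotic kinases and their regulators 27 lay above naive, 0 below, and 29 were called higher, with a median of 3.47. Many of these genes were near background in naive cells, and 168 of the 1618 genes above naive passed the level filter only through the divided arrays, so their counts are a description. Log2 values under 5 are taken as near background, where GCRMA compresses differences, and folds against them hold on the GCRMA scale only.

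Cenpf, which encodes a kinetochore protein of dividing cells, was at 2.68 and 2.83 in naive cells, 9.31 and 9.77 for RIP-OVAhi, 9.86 and 10.38 for OCS/LPS and 7.12 for Rag. The divided arrays stood at least 4.29 above naive, and among them the Rag array was nearest to naive. Cenpf rose by 6.17 (SE 0.20, adjusted p = 3.49e-05), with the largest gap of all tested genes as deposited. That rank rests on naive values near background: with values under 5 set to 5, the rise of Cenpf was 3.93, against 5.15 for Mki67 and 4.80 for Rrm2. Cenpf has 3 probe sets, and none but the one used reached log2 5. With the mean of all 3 its rise was 2.06. Aspm, which encodes a spindle pole protein, was at 2.04 and 2.49 in naive, 8.89 and 9.17 for RIP-OVAhi, 9.58 and 10.003 for OCS/LPS and 6.31 for Rag, a rise of 6.11 (SE 0.19). Ccnb2, which encodes cyclin B2, a partner of the mitotic kinase CDK1, was at 3.76 and 4.31 in naive, 10.96 and 11.10 for RIP-OVAhi, 11.47 and 11.49 for OCS/LPS and 7.87 for Rag. Its rise was 6.09 (SE 0.17, adjusted p = 3.20e-05). In each of these genes the order was naive, then Rag, then RIP-OVAhi, then OCS/LPS, with no overlap between the sets.

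Kif11, which encodes the motor that pushes spindle poles apart, was at 3.32 and 3.34 in naive and 6.83 for Rag, with the 4 other divided arrays at 9.52 to 10.28. Bub1, which encodes a kinase of the spindle checkpoint, was at 3.17 and 2.90 in naive and 6.64 for Rag, with the others at 9.78 to 10.61. Nusap1, for a microtubule-binding protein of the spindle, had naive values of 3.27 and 4.82, the widest naive spread of the leading genes, and reached 8.25 for Rag and 10.58 to 11.68 in the others. Pbk (a mitotic kinase gene) and Prc1, which bundles microtubules for cytokinesis, rose by 4.89 and 4.81 (SE 0.23 and 0.19). Depdc1a rose by 5.56 (SE 0.14), with a gap of 3.44. Kif11 rose by 5.50 (SE 0.14) and Bub1 by 5.89 (SE 0.18), and these calls held when any 1 array was left out. The 1 other Bub1 probe set that reached log2 5 had the same direction but overlapped naive.

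Mki67, the gene of the proliferation marker Ki-67, was already measurable in naive cells, at 6.71 and 7.44. It reached 12.75 and 12.93 for RIP-OVAhi, 12.99 and 13.27 for OCS/LPS and 10.70 for Rag. Every divided array exceeded both naive arrays by at least 3.26, and the rise was 5.15 (SE 0.22, adjusted p = 7.18e-05), or 35.5-fold.

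**Figure D2:**
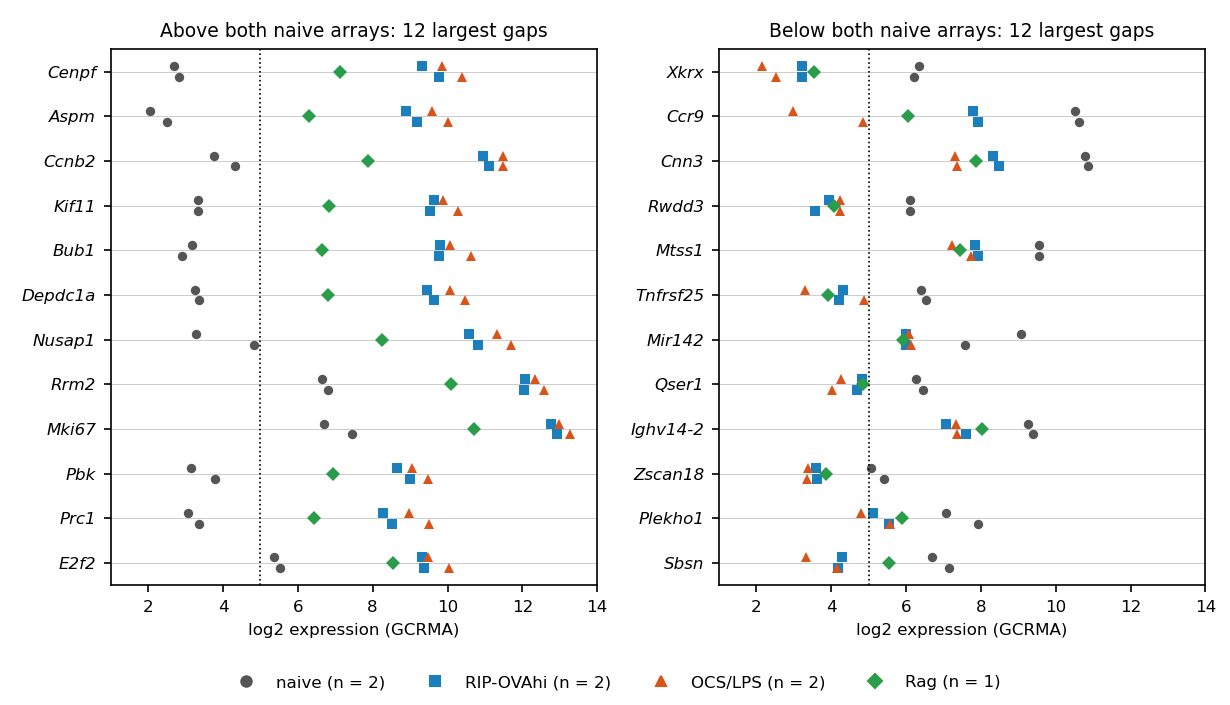
Log2 expression (x axis) on each of the 7 arrays for the 12 genes with the largest gap above naive and the 12 with the largest gap below; the dotted line marks log2 5. Above naive, the Rag array lies between naive and the other divided arrays in every gene shown; below naive its place varies, from 3.54 in Xkrx, nearest to naive, to 5.93 in Mir142, furthest from it.

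The promoters of 3 of these genes and of 2 genes described further on are shown because the mitotic and replication lists differ in the short elements they hold. Each window runs from 250 bases before to 50 bases after the transcription start of the RefSeq gene in GRCm38.p6, 5′ to 3′ along the gene. Capitals mark the searched words on either strand: CCAAT, the CHR word TTTGAA, and for E2F the word TTCCCGC or the word TTCGCGC or the word TTGCCGC or the word TTGGCGC, or a reverse complement of these. Words may overlap, and a match is a description of letters and not of binding. The windows are chr9:70421505-70421804 (minus strand) for Ccnb2, chr1:189688037-189688336 (minus) for Cenpf, chr7:135716330-135716629 (minus) for Mki67, chr11:98907901-98908200 (plus) for Cdc6 and chr9:123766961-123767260 (plus) for Ccr9.

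Ccnb2: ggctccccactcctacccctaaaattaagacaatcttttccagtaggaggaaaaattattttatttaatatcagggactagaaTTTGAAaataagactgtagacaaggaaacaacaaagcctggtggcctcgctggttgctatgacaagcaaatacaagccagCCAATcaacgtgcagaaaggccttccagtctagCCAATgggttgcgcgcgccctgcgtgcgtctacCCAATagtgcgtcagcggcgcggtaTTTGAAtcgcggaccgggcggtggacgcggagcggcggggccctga

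Cenpf: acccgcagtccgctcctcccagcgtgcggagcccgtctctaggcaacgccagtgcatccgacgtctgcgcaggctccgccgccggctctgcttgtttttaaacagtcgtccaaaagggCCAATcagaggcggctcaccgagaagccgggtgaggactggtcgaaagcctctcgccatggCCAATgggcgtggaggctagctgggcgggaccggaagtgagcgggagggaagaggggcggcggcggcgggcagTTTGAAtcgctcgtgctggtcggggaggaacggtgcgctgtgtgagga

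Mki67: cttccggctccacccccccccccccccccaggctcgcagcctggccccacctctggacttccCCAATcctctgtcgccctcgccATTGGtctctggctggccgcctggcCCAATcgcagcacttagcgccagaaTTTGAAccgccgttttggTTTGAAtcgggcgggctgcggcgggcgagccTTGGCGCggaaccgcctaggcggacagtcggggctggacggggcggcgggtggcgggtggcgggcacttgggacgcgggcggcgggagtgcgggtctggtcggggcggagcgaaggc

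Cdc6: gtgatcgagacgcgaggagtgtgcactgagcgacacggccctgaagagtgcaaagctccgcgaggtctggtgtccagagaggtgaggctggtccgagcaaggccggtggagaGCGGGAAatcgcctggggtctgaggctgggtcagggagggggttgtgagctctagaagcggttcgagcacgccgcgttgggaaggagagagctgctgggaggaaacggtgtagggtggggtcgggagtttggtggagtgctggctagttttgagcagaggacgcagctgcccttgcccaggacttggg

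Ccr9: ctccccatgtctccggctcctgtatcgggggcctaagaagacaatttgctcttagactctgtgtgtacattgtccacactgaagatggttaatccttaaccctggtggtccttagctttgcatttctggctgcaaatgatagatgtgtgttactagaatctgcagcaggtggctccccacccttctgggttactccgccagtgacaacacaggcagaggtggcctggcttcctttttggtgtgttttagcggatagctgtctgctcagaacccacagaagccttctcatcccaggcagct

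Ccnb2 held 3 CCAAT words, at -87, -54 and -21 from the start (counted as +1), and CHR words at -167 and 5. Cenpf held 2 CCAAT words at -132 and -71 and a CHR word at 3, and Mki67 held 3 CCAAT, 2 CHR and 1 E2F word. In Cdc6, a replication gene, the search found only an E2F word, at -138, and in Ccr9, a gene that fell, it found none of the words.

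Over all windows of tested genes (8597 windows of 6768 of the 8203 genes), 38.3% held CCAAT, 12.2% the CHR word and 17.8% an E2F word. Of the 147 genes above naive by at least 1, 120 had a window, and their 137 windows held these words in 61.3%, 40.9% and 31.4%. The 18 windows of the 18 genes below naive by at least 1 (14 genes matched) held them in 22.2%, 11.1% and 16.7%. Spindle and kinetochore genes had CCAAT in 70.6% of 51 windows, CHR in 60.8% and E2F words in 23.5%. Cyclins and mitotic kinases had CCAAT in 80.0% of 25 windows and CHR in 48.0%. Between CHR and E2F words, replication genes had the reverse weight, with CHR in 18.2% of 44 windows and E2F words in 61.4%. Repair genes had CHR in 0.0% of 27 windows and E2F words in 51.9%. CCAAT was not reversed, at 56.8% of replication and 55.6% of repair windows, both above the share of all tested genes. Other lists were mixed: cohesin and condensin genes had CCAAT, CHR and E2F words each in 53.8% of 13 windows. Chromatin genes had them in 85.7%, 33.3% and 42.9% of 21 windows. Over every window of the reference table, tested or not, the shares were 37.4%, 17.9% and 9.57%.

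Not every mitotic gene was shared by all divided cells. In the cyclin and kinase list, Cdc25a, Cdc25c, Mastl, Pttg1 and Ube2s overlapped naive, and in the spindle list Dlgap5, Kif18a, Kif20b, Kif23 and Kifc1 did. Cdc25c, for a phosphatase that activates CDK1, was at 3.10 and 3.16 in naive, 5.92 and 6.40 for RIP-OVAhi, 7.18 and 7.58 for OCS/LPS, and 3.04 for Rag. Dlgap5 was at 3.59 for Rag, between its naive values of 3.71 and 3.31, while the other divided arrays lay at 7.42 to 8.58. Kif18a was at 5.40 for Rag against 5.18 and 5.43 in naive and 7.95 to 8.78 in the others. In these genes the Rag array was at the naive level and the RIP-OVAhi and OCS/LPS arrays were not. The calls of 3 further genes of this kind, all higher over the mean of the divided groups, depended on single arrays. Mastl lost its call without RIP-OVAhi replicate 2 (adjusted p = 0.0605), Ube2s without RIP-OVAhi replicate 2 or OCS/LPS replicate 2 (highest 0.0562), and Kifc1 without naive replicate 2 or either RIP-OVAhi array (highest 0.0598). Pttg1, the securin gene, showed no such pattern, with naive values of 11.41 and 11.57 and divided values of 11.28 to 11.72; other probe sets of it gave other directions.

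Within the mitotic lists the size of the rise differed between the hosts. The F test called 53 of the 54 tested spindle genes and 28 of the 32 cyclin and kinase genes, against 16.9% of all tested genes. Rag was lower than OCS/LPS in 54 and 29 of them (background 11.2% of tested genes) and lower than RIP-OVAhi in 52 and 27 (9.84%). RIP-OVAhi was lower than OCS/LPS in 1 and 2 and higher in 0 and 0, with 1.30% and 1.61% of all tested genes as background. The median change of the spindle list was 4.60 for RIP-OVAhi, 5.08 for OCS/LPS and 1.88 for Rag. Rag is a single array, so the comparisons with it take their error wholly from the spread of the duplicated groups. For Cenpf, Rag minus OCS/LPS was -2.995 (SE 0.29, adjusted p = 0.0023), while RIP-OVAhi minus OCS/LPS was -0.58 (SE 0.23, adjusted p = 0.296).

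The genes with the widest spread among the divided groups show how near the Rag array could come to naive. Hmmr, for a spindle-associated hyaluronan receptor, was at 2.19 and 3.12 in naive, 8.63 and 8.92 for RIP-OVAhi, 9.46 and 9.46 for OCS/LPS and 4.63 for Rag. Ttk, for a spindle checkpoint kinase, was at 2.95 and 3.80 in naive and only 4.12 for Rag, with the other divided arrays at 7.90 to 8.92. Parpbp, for a repair protein, was at 2.92 and 2.70 in naive, 3.43 for Rag and 7.54 to 8.69 in the others. Spag5, for a spindle protein, was at 2.74 and 2.80 in naive, 4.51 for Rag and 8.29 to 9.32 in the others. All 4 are shared by the rule, but in Rag they stayed under log2 5.

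DNA replication genes moved less and were less uniform. Of 47 tested genes of origin licensing and the replication fork, 24 lay above naive, 0 below, and 38 were called higher, with a median change of 1.09. The other 23 overlapped naive. Cdc6, which loads the MCM helicase onto origins, was at 4.14 and 5.01 in naive, 9.81 and 9.95 for RIP-OVAhi, 9.94 and 10.06 for OCS/LPS and 7.72 for Rag. It rose by 4.62 (SE 0.24, adjusted p = 1.32e-04), with the Rag array again the divided array nearest to naive. Mcm10 rose by 4.67 (SE 0.15) from 2.29 and 2.69, Clspn, a fork checkpoint gene, by 3.83 (SE 0.24) and Ticrr, an origin firing gene, by 3.21 (SE 0.12). The median change of the list was 1.56 for RIP-OVAhi, 1.76 for OCS/LPS and 0.16 for Rag. Rag was lower than OCS/LPS in 40 of the 47 genes and lower than RIP-OVAhi in 37.

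Nucleotide synthesis was represented by fewer shared genes. Of 25 tested genes 8 lay above naive and 1 below, against 19.7% and 12.1% of all tested genes. In the model 9 were called higher and 1 lower (against 16.7% and 8.87%), and the median change was 0.22. Rrm2, the regulated subunit of ribonucleotide reductase, was at 6.66 and 6.82 in naive, 12.07 and 12.05 for RIP-OVAhi, 12.34 and 12.56 for OCS/LPS and 10.10 for Rag. It rose by 4.80 (SE 0.12, adjusted p = 3.02e-05), and no array of 1 set came within 3.28 of the other. Tk1, thymidine kinase, rose by 5.25 (SE 0.28) and Rrm1, the large reductase subunit, by 2.41 (SE 0.12). Dck, the deoxycytidine salvage kinase, rose by 0.90 (SE 0.14) from a high naive level of 12.26 and 12.09. Shmt2, a mitochondrial one-carbon enzyme, went the other way and fell by 0.50 (SE 0.12, adjusted p = 0.0289). That call was lost without any 1 of the RIP-OVAhi or OCS/LPS arrays (highest adjusted p = 0.0918).

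Chromosome structure and chromatin genes followed. Of 16 cohesin and condensin genes 11 lay above naive and 0 below, 12 were called higher, and the median change was 1.39. Top2a, the topoisomerase that untangles chromosomes, was at 6.49 and 7.07 in naive, 11.50 and 11.57 for RIP-OVAhi, 12.02 and 12.37 for OCS/LPS and 9.83 for Rag. The condensin subunit genes Ncapg and Ncapg2 rose by 5.22 and 4.07 (SE 0.34 and 0.19), and Esco2, a cohesin acetyltransferase, by 4.04 (SE 0.21). The members that overlapped naive were Ncapd3, Smc1a, Smc4, Stag1 and Stag2, none of them under log2 8.50 on any array. Smc1a alone of these was called higher (0.48, SE 0.11), and this call was lost without any 1 of the RIP-OVAhi and OCS/LPS arrays (highest adjusted p = 0.0798). Of 19 genes of chromatin assembly and copying 15 lay above naive, 0 below, and 15 were called higher, with a median of 1.45. Uhrf1, which guides maintenance DNA methylation, rose by 3.94 (SE 0.15), the histone chaperone gene Asf1b by 3.30 (SE 0.12) and Ezh2, the Polycomb methyltransferase, by 2.47 (SE 0.12). Asf1a, H2az1, Nasp and Suz12 overlapped naive. Suz12, a Polycomb gene, was called higher (0.41, SE 0.12), and this call was lost without naive replicate 2 or any 1 of the RIP-OVAhi and OCS/LPS arrays (highest adjusted p = 0.132) and after centring.

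Among E2F and related regulators, 8 of 17 tested genes lay above naive, 0 below, and 9 were called higher, with a median of 0.56. E2f2, an activator of S phase genes, was at 5.35 and 5.52 in naive, 9.31 and 9.38 for RIP-OVAhi, 9.49 and 10.04 for OCS/LPS and 8.55 for Rag. In E2f2 the Rag array was near the other divided arrays, and the F test gave an adjusted p of 0.0488. The rise was 3.78 (SE 0.17). E2f7 and E2f8, which act as repressors, rose by 2.71 (SE 0.10) and 3.18 (SE 0.34), and Tfdp1, the E2F partner, by 1.42 (SE 0.15). Mybl2 was not among the tested genes.

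Of 30 tested repair and checkpoint genes 14 lay above naive and 2 below, 15 were called higher and 1 lower, with a median of 0.67. Rad54l, of homologous recombination, rose by 4.64 (SE 0.14) from 2.32 and 2.51 in naive cells to 5.23 for Rag and 7.83 to 8.21 elsewhere. Brca1 rose by 3.37 (SE 0.20), the checkpoint kinase gene Chek1 by 3.16 (SE 0.20) and Fancd2 by 2.94 (SE 0.22). Mdc1, a scaffold at DNA breaks, fell by 0.81 (SE 0.15), and this call was lost without OCS/LPS replicate 1 or 2 (highest adjusted p = 0.0545). Atr lay 0.09 below naive and was not called (-0.28, SE 0.11, adjusted p = 0.130).

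Of 10 tested G1 cyclins and inhibitors of cyclin-dependent kinases 4 lay above naive and 1 below, and 4 and 1 were called. Among all tested genes 19.7% lay above and 12.1% below, and 16.7% and 8.87% were called. The inhibitor gene Cdkn2c rose by 3.11 (SE 0.25), from 4.66 and 5.57 in naive cells to 7.41 for Rag and 8.53 to 8.78 in the others. Ccng2 rose by 0.89 (SE 0.14). Cdkn3, a phosphatase gene grouped with them, was at 3.76 for Rag and 7.06 to 8.24 in the other divided arrays, against 2.72 and 2.92 in naive. Ccng1 rose by 0.42 (SE 0.11), and this call was lost without naive replicate 2 or any 1 of the RIP-OVAhi and OCS/LPS arrays (highest adjusted p = 0.108) and after centring. Ccnd2, which encodes cyclin D2, was at 12.44 and 12.64 in naive, 11.72 and 11.77 for RIP-OVAhi, 10.76 and 10.49 for OCS/LPS and 11.90 for Rag. It fell by 1.12 (SE 0.13, adjusted p = 0.0025), and the fall was deepest in OCS/LPS. Cdkn1b, the p27 gene, overlapped, with divided values of 9.17 to 9.80 on either side of the naive 9.55 and 9.15. Its probe sets differ in direction, as do those of Ccnd3, which overlapped together with Cdk4, Cdk6 and Cdkn2d.

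**Figure D3:**
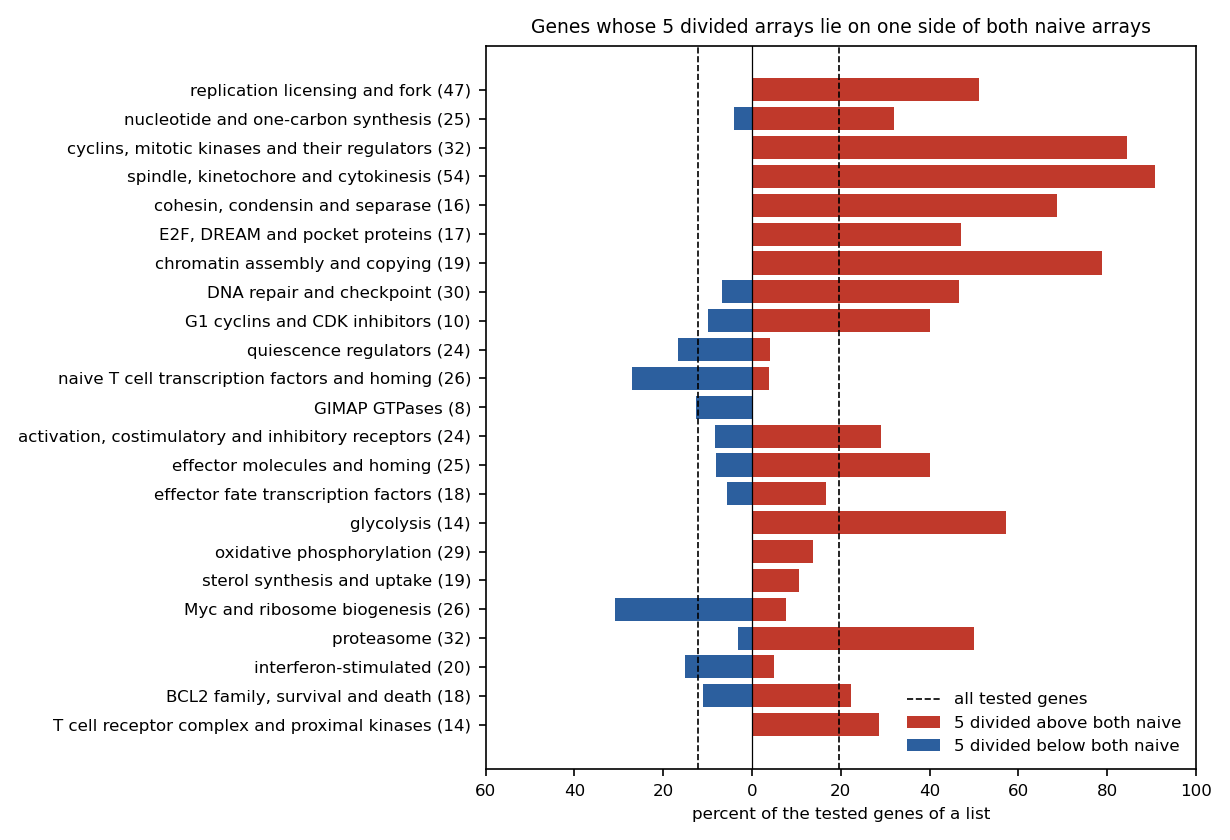
Percent of the tested genes of each list (number in parentheses) whose 5 divided arrays lay above both naive arrays (right) or below both (left). Dashed lines mark the same shares over all tested genes, 19.7% above and 12.1% below; the spindle, cyclin and chromatin lists reach furthest above.

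Among activation, costimulatory and inhibitory receptors, 7 of 24 tested genes lay above naive and 2 below. The model called 14 higher and 2 lower, with a median change of 0.92. For comparison, 19.7% of all tested genes lay above naive and 12.1% below, and 16.7% were called higher and 8.87% lower. Cd44, the adhesion receptor used to mark antigen-experienced T cells, was at 7.67 and 8.23 in naive, 11.86 and 11.84 for RIP-OVAhi, 11.11 and 11.34 for OCS/LPS and 9.89 for Rag. The sorted donors were CD44lo at transfer, and every divided array exceeded naive by at least 1.66. Cd44 rose by 3.04 (SE 0.18, adjusted p = 1.93e-04). Il10ra, the interleukin-10 receptor chain, was at 5.38 and 5.22 in naive, 7.56 and 7.69 for RIP-OVAhi, 7.0005 and 6.95 for OCS/LPS and 7.42 for Rag. Its 5 divided values lay within 0.74 of each other, the narrowest spread among called genes above naive that rose by at least 2 on the log2 scale.

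Cd86, the costimulatory ligand gene, was at 4.05 and 3.93 in naive, 8.17 and 8.10 for RIP-OVAhi, 6.17 and 6.16 for OCS/LPS and 5.42 for Rag. Here RIP-OVAhi was the highest group, 1.96 above OCS/LPS (SE 0.12, adjusted p = 0.0013). Il12rb1, a chain of the interleukin-12 receptor, rose by 1.61 (SE 0.10) and stayed lowest in RIP-OVAhi, at 4.17 and 4.07 against 5.49 to 5.75 in the others and 3.46 and 3.50 in naive. Cd69, an early activation marker, was lower in all divided cells. It was at 9.66 to 9.90 for RIP-OVAhi and OCS/LPS and 10.80 for Rag against 11.002 and 11.27 in naive. It fell by 0.997 (SE 0.12, adjusted p = 0.0035). Slc3a2, the heavy chain of amino acid transporters, fell by 0.64 (SE 0.10).

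Of 25 tested effector and homing genes 10 lay above naive and 2 below, against 19.7% and 12.1% of all tested genes. The model called 15 higher and 2 lower (against 16.7% and 8.87%), with a median of 0.77. Cxcr3, the chemokine receptor of effector T cells, was at 8.27 and 8.32 in naive, 11.33 and 11.31 for RIP-OVAhi, 12.41 and 12.08 for OCS/LPS and 11.13 for Rag. It rose by 3.27 (SE 0.13, adjusted p = 5.24e-05), and its gap of 2.81 was the largest outside the cell cycle lists among the genes that the lists name. In contrast to the mitotic genes, the Rag array stood close to RIP-OVAhi. Anxa2, for a membrane-binding annexin, rose by 3.32 (SE 0.20) and was 9.42 for Rag, 11.18 and 11.15 for RIP-OVAhi and 12.26 and 11.73 for OCS/LPS, against 7.32 and 7.77. Lgals1, for galectin-1, was at 11.20 and 12.66 in naive and 13.27 to 14.14 in divided cells. Its call (1.70, SE 0.37, adjusted p = 0.023) was lost without any 1 of the RIP-OVAhi and OCS/LPS arrays (highest adjusted p = 0.0825).

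Ifng, the interferon-gamma gene, was at 2.79 and 3.66 in naive, 6.80 and 7.73 for RIP-OVAhi, 7.81 and 7.43 for OCS/LPS, and 4.25 for Rag. It rose by 3.16 (SE 0.34, adjusted p = 0.0022), although the Rag value stayed under log2 5. S100a6, for a calcium-binding protein, met the rule by 0.01 only. It was at 6.23 and 6.89 in naive, 6.96 and 6.90 for RIP-OVAhi, 12.17 and 12.10 for OCS/LPS and 10.93 for Rag, so the RIP-OVAhi arrays sat at the upper naive value while the others were far above. Cxcr6 and the perforin gene Prf1 fell by 1.53 (SE 0.22) and 1.01 (SE 0.19), and the call of Prf1 was lost without RIP-OVAhi replicate 2 (adjusted p = 0.0548).

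Most transcription factors of effector fate overlapped naive. Of 18 tested 14 did, 3 lay above and 1 below, shares no larger than the 19.7% and 12.1% of all tested genes. The model called 7 higher and 2 lower, against 16.7% and 8.87% of all tested genes. Tbx21, which encodes T-bet, was at 7.19 and 7.02 in naive, 8.91 and 9.04 for RIP-OVAhi, 10.81 and 10.76 for OCS/LPS and 9.13 for Rag. All divided arrays were at least 1.72 above naive, and OCS/LPS stood 1.81 above RIP-OVAhi (RIP-OVAhi minus OCS/LPS -1.81, SE 0.13, adjusted p = 0.0026). Irf8 had the opposite order, at 5.86 and 6.33 in naive, 9.65 and 9.40 for RIP-OVAhi, 8.07 and 8.33 for OCS/LPS and 7.72 for Rag. Ikzf3, for the Ikaros family factor Aiolos, rose by 1.39 (SE 0.14), but the 1 other Ikzf3 probe set that reached log2 5 moved in the opposite direction. Id2, for an inhibitor of E proteins, was at 11.93 and 12.15 in naive, 10.43 and 10.37 for RIP-OVAhi, 11.24 and 11.41 for OCS/LPS and 9.98 for Rag. It fell by 1.48 (SE 0.12, adjusted p = 6.53e-04) and was the one factor of this list below naive on all 5 arrays. The 1 other Id2 probe set that reached log2 5 had the same direction but overlapped naive.

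Of the 24 tested activation receptors 15 overlapped naive (against 68.2% of all tested genes), among them Ctla4 and Pdcd1. Ctla4, an inhibitory receptor, was at 2.64 and 2.29 in naive and 2.26 for Rag, with 9.94 to 10.33 in the other 4 arrays. Pdcd1, for PD-1, was at 4.08 and 4.40 in naive and 4.15 for Rag, with 7.47 to 8.49 in the others. Both were called higher over the mean of the divided groups, and both overlapped naive by the rule. Il7r, the interleukin-7 receptor, was at 12.94 and 12.78 in naive and 13.01 for Rag against 9.30 to 10.52 for RIP-OVAhi and OCS/LPS. Bcl2, a survival gene, was at 12.26 and 11.88 in naive, 10.50 and 10.15 for RIP-OVAhi, 9.14 and 9.51 for OCS/LPS and 13.24 for Rag. The Rag array stood above naive and the other divided arrays below, so the mean over the divided groups (-1.11) joins values on both sides.

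**Figure D4:**
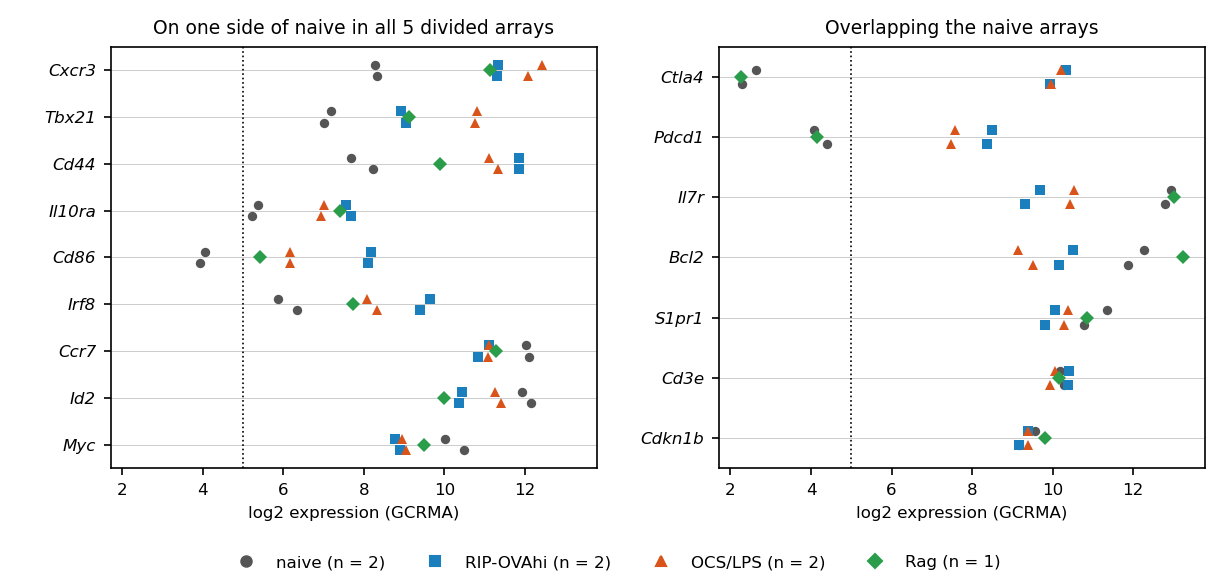
Log2 expression (x axis) on the 7 arrays of activation and naive-state genes that lay on one side of naive in all 5 divided arrays (left) and of genes that overlapped naive (right); the dotted line marks log2 5. Ctla4, Pdcd1 and Il7r lie at the naive level in Rag (2.26, 4.15 and 13.01), and Bcl2 lies above it (13.24).

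Genes lower in all divided cells had smaller gaps and fewer list members among the leaders. Of 26 tested genes of naive T cell factors and homing 7 lay below naive and 1 above, against 12.1% and 19.7% of all tested genes. The model called 12 lower and 0 higher (against 8.87% and 16.7%), with a median change of -0.42. Ccr9 (the gut homing chemokine receptor) was at 10.51 and 10.62 in naive, 7.80 and 7.92 for RIP-OVAhi, 2.98 and 4.86 for OCS/LPS and 6.06 for Rag. It fell by 4.62 (SE 0.48, adjusted p = 0.0018), and RIP-OVAhi kept 3.94 more than OCS/LPS (SE 0.56, adjusted p = 0.0259). Ccr7, the lymph node homing receptor, was at 12.02 and 12.10 in naive, 11.12 and 10.82 for RIP-OVAhi, 11.11 and 11.08 for OCS/LPS and 11.29 for Rag. It fell by 0.94 (SE 0.12, adjusted p = 0.0039), to a like level in all 3 kinds of host (F test adjusted p = 0.422, 5 arrays within 0.46 of each other).

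Igfbp4, for a secreted binding protein of insulin-like growth factors, was at 12.60 and 12.60 in naive, 7.85 and 7.31 for RIP-OVAhi, 8.34 and 7.72 for OCS/LPS, and 12.16 for Rag. It fell by 3.34 (SE 0.22), and the Rag array was 0.44 below naive. Itgae, the integrin chain CD103, was at 10.80 and 11.37 in naive, 10.13 and 10.39 for RIP-OVAhi, 10.26 for Rag and 7.46 and 8.12 for OCS/LPS. In this gene Rag matched RIP-OVAhi and the OCS/LPS arrays stood apart (RIP-OVAhi minus OCS/LPS 2.47, SE 0.29, adjusted p = 0.0143). S1pr1, needed to leave lymphoid organs, overlapped naive, with 10.86 for Rag between its naive values of 11.34 and 10.78. It fell by 0.68 (SE 0.18), which was not called without naive replicate 1 or any 1 of the RIP-OVAhi and OCS/LPS arrays (highest adjusted p = 0.114).

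Of 24 tested quiescence regulators 19 overlapped naive, 4 lay below (against 12.1% of all tested genes) and 1 above. The model called 9 lower (against 8.87% of all tested genes) and 1 higher. The median change was -0.28, with -0.49 for RIP-OVAhi, -0.55 for OCS/LPS and 0.09 for Rag. Klf2, which maintains quiescence and trafficking receptors, was at 12.29 and 12.34 in naive, 11.04 and 11.18 for RIP-OVAhi, 11.79 and 11.38 for OCS/LPS and 12.09 for Rag. It fell by 0.72 (SE 0.14, adjusted p = 0.017), and this call was lost without RIP-OVAhi replicate 1 or 2 (highest adjusted p = 0.065). Klf7, Klf13 and the antiproliferative gene Btg1 fell by 0.55, 0.62 and 0.52, each with the Rag array nearest to naive. Their calls were lost without RIP-OVAhi replicate 1 or OCS/LPS replicate 2, and Klf7 also without OCS/LPS replicate 1, Klf13 without RIP-OVAhi replicate 2 and Btg1 without naive replicate 1, RIP-OVAhi replicate 2 or OCS/LPS replicate 1. The highest adjusted p was 0.0529 for Klf7, 0.0553 for Klf13 and 0.0913 for Btg1. Foxo4 rose by 0.50 (SE 0.13), and this call was lost without naive replicate 1 or any 1 of the RIP-OVAhi and OCS/LPS arrays (highest adjusted p = 0.103) and after centring. Of 8 GIMAP genes, lymphocyte GTPases, Gimap8 alone lay on one side, 0.07 below naive and not called.

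The furthest falls were mostly in genes outside the lists. Xkrx, for a membrane protein of the XK family, was at 6.36 and 6.20 in naive, 3.22 and 3.23 for RIP-OVAhi, 2.16 and 2.53 for OCS/LPS and 3.54 for Rag. All divided arrays were near background, and Xkrx fell by 3.24 (SE 0.14, adjusted p = 7.18e-05). Of the 992 genes below naive 35, Xkrx among them, passed the level filter only through the naive arrays. Their falls are descriptions. Cnn3, for an actin-binding calponin, was at 10.79 and 10.87 in naive, 8.32 and 8.49 for RIP-OVAhi, 7.31 and 7.37 for OCS/LPS and 7.88 for Rag. It fell by 2.95 (SE 0.10), and 5 other probe sets of Cnn3 that reached log2 5 lay on the same side. Mtss1, for a membrane and actin organiser, was at 9.55 and 9.55 in naive and 7.23 to 7.92 in divided cells. It fell by 1.95 (SE 0.16).

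Tnfrsf25, for the TNF receptor family member DR3, was at 6.41 and 6.54 in naive and 3.30 to 4.86 in divided cells. It fell by 2.39 (SE 0.40). Rwdd3 fell by 2.09 (SE 0.13), Qser1 by 1.77 (SE 0.13) and Zscan18, a zinc finger gene, by 1.63 (SE 0.13), each to under log2 5 in all 5 divided arrays; the call of Zscan18 was lost when values under 5 were set to 5. Like Xkrx, the genes Tnfrsf25, Rwdd3, Qser1 and Zscan18 passed the level filter only through the naive arrays, so their falls are descriptions. Plekho1 fell by 2.03 (SE 0.32) and Sbsn by 2.41 (SE 0.26). A probe set annotated to Mir142, which cannot measure the mature microRNA, was at 9.08 and 7.59 in naive and 5.93 to 6.13 in all divided arrays. It fell by 2.32 (SE 0.38). The divided arrays were within 0.20 of each other while the naive arrays were 1.499 apart. A probe set of the immunoglobulin segment Ighv14-2, which may read related segments, fell by 1.75 (SE 0.17).

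Some shared falls differed in depth between hosts. Cxxc5, for a zinc finger protein of the CXXC family, was at 8.53 and 8.63 in naive, 6.80 and 6.91 for RIP-OVAhi, 3.35 and 3.33 for OCS/LPS and 7.41 for Rag. OCS/LPS stood far below the other groups (RIP-OVAhi minus OCS/LPS 3.51, SE 0.12, adjusted p = 2.22e-04). Ttc28 was at 6.97 and 6.96 in naive, 5.28 and 4.88 for RIP-OVAhi, 2.98 and 3.41 for OCS/LPS and 5.86 for Rag, which is the same order. App, the amyloid precursor gene, was at 7.03 and 6.72 in naive, 6.65 for Rag and 2.58 to 2.90 in the others, so Rag met the rule by 0.07. Hacd1 was lowest in Rag, at 3.50 against 5.25 to 6.98 in the other divided arrays and 7.01 and 7.44 in naive.

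At the other end were the genes with the smallest spread over the divided arrays among those called and changed by at least 2 on the log2 scale. Lockd, a noncoding gene, was at 4.16 and 4.60 in naive and 7.18 to 7.97 in divided cells, with an F test adjusted p of 0.536. Hdac6, for a cytoplasmic deacetylase, was at 3.48 and 3.13 in naive and 5.49 to 6.48 in divided cells (F test adjusted p = 0.079). The chromatin protein gene Hmgb2 was at 10.86 and 10.86 in naive and 12.42 to 13.46 in divided cells, and Cdc25b, a CDK-activating phosphatase, at 7.56 and 7.55 against 9.20 to 10.41. In these 2 genes Rag was again the lowest divided array, and the F test called both. Actn2, for an alpha-actinin, was at 7.45 and 8.87 in naive and 5.22 to 6.55 in divided cells. It fell by 2.10 (SE 0.41), which was not called without RIP-OVAhi replicate 1, OCS/LPS replicate 1 or OCS/LPS replicate 2 (highest adjusted p = 0.0622). A p above the threshold in the F test does not show that the groups were equal.

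**Figure D5:**
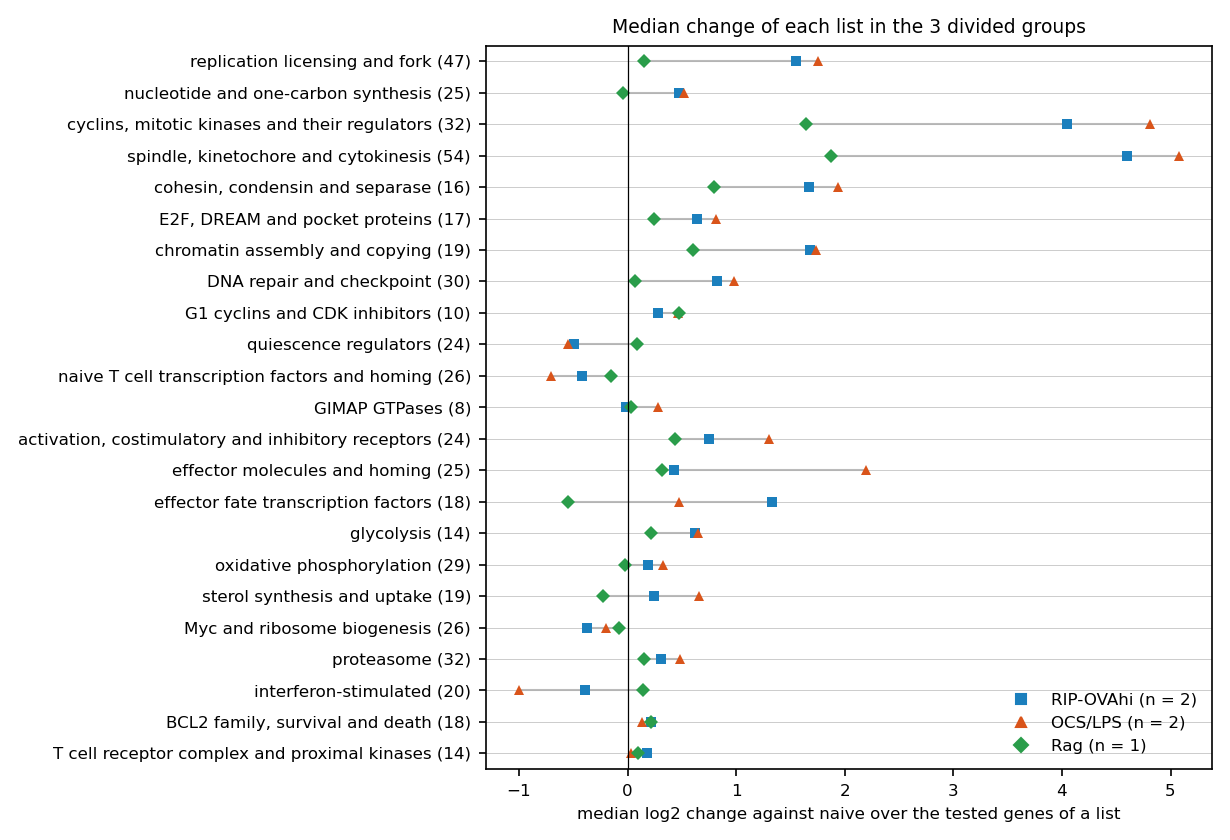
Median log2 change against naive over the tested genes of each list (x axis), for RIP-OVAhi, OCS/LPS and Rag; the changes share the naive arrays. In the mitotic lists the medians run from 1.64 and 1.88 for Rag to 4.81 and 5.08 for OCS/LPS, whereas in the proteasome list all 3 lie between 0.15 and 0.48.

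Metabolic genes changed by small amounts. Of 14 tested glycolysis genes 8 lay above naive, 0 below, and 8 were called higher, with a median of 0.62. Hk2, hexokinase 2, was at 4.61 and 4.72 in naive, 6.12 and 6.58 for RIP-OVAhi, 6.48 and 7.28 for OCS/LPS and 5.39 for Rag, a rise of 1.54 (SE 0.25). Ldha, lactate dehydrogenase A, was at 12.51 and 12.33 in naive and 12.96 to 13.20 in all divided arrays, a rise of 0.61 (SE 0.11) whose call was lost without RIP-OVAhi replicate 2 (adjusted p = 0.0505). Pfkp rose by 0.78 (SE 0.11) and Pgam1 by 0.70 (SE 0.11), but the 1 other Pfkp probe set that reached log2 5 moved in the opposite direction. Of 29 oxidative phosphorylation genes 4 lay above naive and 2 were called higher, with a median of 0.19. Both shares were under those of all tested genes, 19.7% and 16.7%. Ndufa9, of complex I, rose by 0.55 (SE 0.11), and this call was lost without RIP-OVAhi replicate 1 or OCS/LPS replicate 2 (highest adjusted p = 0.057); Uqcrc1, Ndufs1 and Ndufs3 were 0.39, 0.26 and 0.23 higher and not called.

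Of 32 proteasome genes 16 lay above naive and 1 below, and 15 overlapped. The model called 11 higher and 0 lower (against 16.7% and 8.87% of all tested genes). The median change was 0.33, and the F test called 1. Psmb7, a core subunit, was at 9.67 and 9.84 in naive and 10.19 to 11.005 in divided cells, a rise of 0.84 (SE 0.13). Psma4, Psmd3 and Psmb2 rose by 0.46, 0.42 and 0.74, and each call was lost without 1 of several arrays: OCS/LPS replicate 1 or 2 or RIP-OVAhi replicate 2 for all 3, RIP-OVAhi replicate 1 for Psma4 and Psmd3, and either naive array for Psmd3. The highest adjusted p was 0.068, 0.107 and 0.066. The call of Psmd3 was also lost after centring. Psme1, of the immunoproteasome activator, lay 0.05 below naive and was not called.

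Sterol genes were mostly not shared: 17 of 19 overlapped naive (against 68.2% of all tested genes), 2 lay above and 0 below. The model called 4 higher and 1 lower, against 16.7% and 8.87% of all tested genes. Pmvk, of the mevalonate pathway, rose by 1.08 (SE 0.12), with 7.29 for Rag, 8.11 to 8.68 in the others and 6.77 and 7.08 in naive. Srebf2, for the factor that drives sterol synthesis, rose by 0.52 (SE 0.11), and this call was lost without any 1 of the RIP-OVAhi and OCS/LPS arrays (highest adjusted p = 0.0685) and after centring.

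Myc and ribosome biogenesis genes leaned the other way. Of 26 tested 8 lay below naive and 2 above, against 12.1% and 19.7% of all tested genes. In the model 5 were called lower and 2 higher (against 8.87% and 16.7%), and the median change was -0.20. Myc, the growth-promoting transcription factor, was at 10.01 and 10.48 in naive, 8.77 and 8.91 for RIP-OVAhi, 8.95 and 9.04 for OCS/LPS and 9.49 for Rag. It fell by 1.13 (SE 0.16, adjusted p = 0.0052), and every divided array was at least 0.51 below naive. Wdr43 fell by 0.58 (SE 0.11) and Noc2l by 0.54 (SE 0.15), both nucleolar genes. The call of Wdr43 was lost without either RIP-OVAhi array or OCS/LPS replicate 1 (highest adjusted p = 0.0568) and that of Noc2l without any 1 array other than Rag (highest adjusted p = 0.103). Mxd1, for an antagonist of MYC, rose by 0.51 (SE 0.12), and this call was lost without any 1 of the RIP-OVAhi and OCS/LPS arrays (highest adjusted p = 0.0907) and after centring. Ncl and Pes1 lay 0.07 above and 0.13 below naive and were not called, and other probe sets of both differed in direction.

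Interferon-stimulated genes had 3 of 20 members below naive and 1 above, with 8 called lower and 1 higher and a median of -0.50. Of all tested genes 12.1% lay below naive and 19.7% above, and 8.87% were called lower and 16.7% higher. Ifit1, an antiviral RNA-binding protein, was at 7.72 and 8.33 in naive, 6.85 and 6.85 for RIP-OVAhi, 5.22 and 4.76 for OCS/LPS and 6.85 for Rag. It fell by 1.79 (SE 0.21, adjusted p = 0.0029). Gbp2, a guanylate-binding protein, met the rule by 0.01, with 11.50 for Rag against naive values of 11.51 and 11.81 and 9.79 to 10.24 in the other divided arrays. Bst2 fell by 1.02 (SE 0.27), and this call was lost without naive replicate 2 or any 1 of the RIP-OVAhi and OCS/LPS arrays (highest adjusted p = 0.150). Oas3 rose by 0.65 (SE 0.12) and was highest in Rag, at 7.45 against 6.82 to 7.09; its call was lost without RIP-OVAhi replicate 2 (adjusted p = 0.0551).

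In the BCL2 family and death list 4 of 18 genes lay above naive and 2 below, and 3 were called higher and 2 lower. These counts were near the shares of all tested genes, with 19.7% above, 12.1% below, 16.7% called higher and 8.87% lower. Apaf1, the apoptosome scaffold, was at 7.79 and 8.07 in naive, 9.51 and 9.70 for RIP-OVAhi, 9.83 and 9.87 for OCS/LPS and 8.83 for Rag. It rose by 1.497 (SE 0.12, adjusted p = 7.74e-04). Bcl2l1, for the survival protein BCL-XL, rose by 1.05 (SE 0.19) to 6.99 to 7.22 in all divided arrays, a call lost without either RIP-OVAhi array or OCS/LPS replicate 2 (highest adjusted p = 0.0531). Bbc3, for the death protein PUMA, was at 6.78 and 7.04 in naive, 4.69 to 4.94 for RIP-OVAhi and OCS/LPS and 6.37 for Rag. It fell by 1.54 (SE 0.13). Bak1 rose by 0.40 (SE 0.10), and this call was lost without naive replicate 2 or any 1 of the RIP-OVAhi and OCS/LPS arrays (highest adjusted p = 0.105) and after centring. Fas and Bmf met the rule by 0.10 and 0.01 and were not called.

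Of 14 genes of the T cell receptor complex and its kinases 4 lay above naive and 0 below, against 19.7% and 12.1% of all tested genes. In the model 1 was called higher (against 16.7%). The median of 0.06 became -0.05 after centring. The adaptor gene Lcp2 rose by 0.52 (SE 0.10), and this call was lost without any 1 of the RIP-OVAhi and OCS/LPS arrays (highest adjusted p = 0.0651). Zap70, Thy1 and Cd8a met the rule by 0.21, 0.05 and 0.01 and were not called. Of the 4 other Cd8a probe sets that reached log2 5, 3 differed in direction.

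The rule has no minimum distance, and many genes lay at its edge. Just inside were Slain2, Prkcd and Kpna6 above naive and Rffl, Armcx2 and Slc38a10 below, all with gaps that round to 0.00. Just outside were AI597479, Ascc2 and Bin1, and 3110009E18Rik, Acap3 and Actr5, among 30 tested genes whose nearest divided and naive arrays had identical values. Prkcd, for instance, was at 7.22 and 6.23 in naive and 7.22 to 7.27 in divided cells. Hspa1a, a heat shock gene whose sequence is nearly identical to that of Hspa1b, met the rule with the widest spread of all called genes above naive that rose by at least 2. It was at 2.02 and 2.03 in naive, 9.18 and 10.94 for RIP-OVAhi, 7.18 and 3.22 for OCS/LPS and 2.36 for Rag. The OCS/LPS replicates stood far apart, and the call (3.85, SE 1.07, adjusted p = 0.0471) was lost without either naive array or either RIP-OVAhi array (highest adjusted p = 0.136) and when values under 5 were set to 5. It was also lost with the replicate block (adjusted p = 0.0606), with the mean of all probe sets (0.0501), and without RIP-OVAhi (0.349) or OCS/LPS (0.0691) in the mean.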

How the data were processed

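RNA of sorted OT-I cells was measured on 7 Affymetrix arrays. Per the labels' protocols, RNA was extracted with Trizol, and 100 ng was amplified in the two-cycle kit. The authors deposited log2 values of 45101 probe sets which the submitters' processing notes credit to GCRMA (no version given in the sources used). That method corrects background from probe sequence and quantile-normalizes, so a shift common to most genes cannot be seen. Arrays have no read depth, and their number limits the precision.

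Names came from the platform annotation: 34958 probe sets had 1 symbol, 932 several and 9211 none. Of the first, 34754 were matched by Entrez identifier to RefSeq (GRCm38.p6), with 0 symbols changed. Each of 18194 genes was represented by the probe set with the highest mean, and the 8203 with log2 of at least 5 on at least 2 arrays were tested.

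A mean per group was fitted with limma 3.58.1 (lmFit, eBayes) under R 4.3.3, with 3 residual and 2.93 prior degrees of freedom. The single Rag array was assumed to vary like the others. P-values were two-sided and Benjamini-Hochberg adjusted over all tested genes; SE is limma's moderated standard error. Whether the pools of a group are separate experiments is not stated in the labels. Xist and Eif2s3y differ between the arrays of each duplicated group, so these are not repeats of the same RNA. The p-values reflect array-to-array spread, and how much of it is technical was not tested. Levels of sex-linked genes go with the replicate number in every group, but over all tested genes same-numbered replicates did not consistently deviate together (r = 0.20, -0.06 and -0.005), so the replicate block is an alternative only.

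The genes named were the 12 largest gaps per direction among called genes, up to 4 members per list and direction, members off the rule where 5 or fewer, the 6 tightest and 6 most spread genes per direction, 3 genes on each side of the rule's edge, and 18 genes chosen by name; 1 further item is not reported here. The members and lists were chosen with earlier results of these data known. Alternatives were other filters, floors, centring, weights, probe sets and models, a replicate block and leaving out each array. The procedure was tested on simulated data.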

Additional observations from a re-analysis of the deposited data

Results flagged for a closer look

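For 21 named genes the change against naive differed between the RIP-OVAhi and OCS/LPS hosts by limma's test of that difference (adjusted p under 0.05 over 8203 genes, n = 2 per group). Tissue and host differ together in this comparison. Over all tested genes the same test called 1.61% higher and 1.30% lower in RIP-OVAhi. Some named genes were picked for wide spread among the divided arrays, such as S100a6, Ccr9, Cxxc5 and Ttc28. The count of 21 is therefore a description. Differences are RIP-OVAhi minus OCS/LPS on the log2 scale.

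Among genes above naive in all divided cells, RIP-OVAhi was lower for S100a6 (-5.20, SE 0.22, adjusted p = 3.59e-04), Tbx21 (-1.81), Il12rb1 (-1.55), Cdkn3 (-1.09), Cxcr3 (-0.92) and E2f7 (-0.88). It was higher for Cd86 (1.96) and Irf8 (1.32). Among genes below naive, RIP-OVAhi kept the higher level of Ccr9 (3.94), Cxxc5 (3.51), Itgae (2.47), Ttc28 (1.89), Ifit1 (1.86), Ccnd2 (1.12) and Cnn3 (1.06), and the lower level of Id2 (-0.93).

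In genes that overlapped naive the differences were -0.98 for Il7r, 0.91 for Pdcd1 and -1.22 for Cdc25c. The host cell markers H2-Aa (-4.49) and Lyz1 (-4.67) were low in RIP-OVAhi alone; the part of host cell RNA in the other differences was not tested. No group had the 4 arrays that a check for a single deviating array needs.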

How the results depend on the processing

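The number of tested genes on one side moved from 2610 to 10128 with no filter on low values, to 4382 without Rag, to 1217 with a gap of at least 0.2 (810 above and 407 below, chosen after seeing the data), and to 2680 to 4522 when 1 array was left out. The count of divided against naive moved from 2099 to 418 with 2 groups in the model, all 418 among the 2099, to 1161 without OCS/LPS in the mean (1144 shared), and to 1037 to 3071 when 1 array was left out. The F test moved from 1386 to 820 with no filter and to 239 to 2767 when 1 array was left out. The 239 is from the fit without Rag, where the F test compares only RIP-OVAhi with OCS/LPS. The other alternatives run for these 3 counts kept them within 1.5 times.

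With the replicate block, 1928 genes were called in divided against naive and 1051 in the F test. Of the named genes, 8 lost their call with it (Hspa1a, Shmt2, Ccng1, Foxo4, Btg1, Psmd3, Bak1 and Suz12, adjusted p 0.0505 to 0.081) and 2 gained one (Fas and Nasp). The numbers go with the sex-linked genes, but deviations over all tested genes were not shared by number in every pair. Of 161 named genes refitted, 132 were called, 99 of them also without any 1 array and 50 under every alternative run for single genes. Those alternatives left out the fit with no filter, the filter at log2 6 and the robust eBayes fit. The model with 2 groups lost 76 calls.

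Directions turned only in genes that were not called, apart from H2-Aa (0.59 without RIP-OVAhi in the mean). With the probe set of the largest variance Ncl was -0.23, Cdkn1b -0.42, Cdc25a 0.63, Pttg1 0.52 and Ccnd3 -0.93 (adjusted p = 0.0289). With the mean of all probe sets they were -6.52e-04, -0.14, 0.21, 0.0765 and -0.20, and Asf1a was -0.15. Without Rag in the mean Cdkn1b was -0.0131, Cdc25a 0.19 and Pttg1 0.0036. Cd3e was 0.0462 without OCS/LPS and Cdk6 0.0488 without RIP-OVAhi in the mean, Cdc25a was 0.0711 with 2 groups, and Ncapd3 was -0.0117 and the T cell receptor list median -0.0498 after centring. The causes were not tested. With 1 array left out, the change ranged from -0.0586 to 0.34 for Cdkn1b, -0.10 to 0.0032 for Cd3e, -0.0459 to 0.19 for Cdc25a, -0.10 to 0.0631 for Pttg1 and -0.10 to 0.66 for Cdkn2d.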

Other observations

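Several gene families outside the lists were looked at after their values were seen, so their counts are descriptions. Of 206 tested zinc finger genes named Zfp, Zscan or Zkscan, which mostly encode DNA-binding repressors, 61 lay below naive on all 5 divided arrays (29.6%, against 12.1% of all tested genes) and 9 above. Of these 206 genes 39 were called lower (18.9%, against 8.87%) and 7 higher, and the median change was -0.21. After centring 59 were called lower and 4 higher.

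Of 46 cytosolic ribosomal protein genes (Rpl and Rps), 19 lay below naive (41.3%) and 1 above, but the median change was only -0.11 and 6 were called lower. Their median naive level of 14.2 is at the upper end of the array scale. Mitochondrial ribosomal protein genes showed no such lean, with 7 of 75 above naive and 2 below.

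Over all tested genes 19.7% lay above naive and 16.7% were called higher. Of 6 tested myosin genes 5 lay above naive and were called higher (Myo18a, Myo1c, Myo1f, Myo1g and Myo5a), with a median of 1.22, and Myo9b overlapped. All 5 tested annexin genes (Anxa2, Anxa4, Anxa5, Anxa6 and Anxa7) lay above naive and were called higher, with a median of 0.92. Both families kept these counts of calls after centring.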
